A study of Mus musculus with 6 samples.

Results

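Transcripts of 7 genes used as markers of mast cells and basophils, Cpa3, Mcpt4, Tpsb2, Cma1, Ms4a2, Fcer1a and Kit, were followed through 6 arrays of mouse cochlear RNA. They were taken by gene name from the non-control probes of the arrays and are 7 of 37318 genes, with 10 of 56605 probes. All mice were female C57BL/6 animals aged 6 weeks. The groups were noise only, exposed to intense noise for 2 h with no injection named; dexamethasone 12 h and dexamethasone 24 h, noise followed at once by an intraperitoneal injection of the synthetic glucocorticoid at 10 mg/kg; saline 12 h and saline 24 h, noise followed by a control injection; and baseline, with no noise and no drug. The hours run from noise and injection, and the sources used here give no hour for the noise-only group. Each group had 6 mice according to the design text and has 1 array. Pooling of RNA among those mice is not described in the labels.

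Mast cells reside in connective tissue and store proteases, histamine and heparin in granules that they release when IgE on their surface is crosslinked by antigen. Basophils are related cells that circulate in the blood and share the IgE receptor, but carry other granule proteases. Cpa3 and the chains of the IgE receptor are known from both cells, the other proteases followed here from mast cells. Glucocorticoids are used clinically against allergic inflammation, in which both take part. In the cochlea, Kit is also known from the melanocytes of the stria vascularis, and loss of Kit function in mice causes white coat patches and deafness.

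The genes fall into 3 roles. Cpa3 encodes carboxypeptidase A3, Mcpt4 and Cma1 encode chymotrypsin-family granule proteases, and Tpsb2 encodes a granule tryptase. Fcer1a encodes the IgE-binding alpha chain of the high-affinity IgE receptor, and Ms4a2 encodes its signal-amplifying beta chain. Kit encodes the receptor for stem cell factor, on which mast cells depend for survival. The probes of 60 bases that represent them lie, on mm9, at chr3:20115674-20115733 on the minus strand for Cpa3, chr14:56678589-56678648 minus for Mcpt4, chr14:56560454-56560513 minus for Cma1 and chr17:25504819-25504878 plus for Tpsb2. Those of Ms4a2, Fcer1a and Kit lie at chr19:11690107-11690166 minus, chr1:175152865-175152924 minus and chr5:76052394-76052453 plus. Cma1 and Mcpt4 stand in the same chymase gene cluster, but the longest run that any of the 10 probes shared with a probe of another gene was 16 bases.

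GATA factors are known regulators of mast cell and basophil genes, so the promoters of the genes were searched for the GATA hexamers that start with A, which are AGATAA and also AGATAG, and those that start with T, which are TGATAA and also TGATAG, on both strands, from 250 bases before to 50 bases after the transcript start in RefSeq's table for GRCm38.p6. Of the 6 genes with a window in that table, 5 held at least 1 hexamer, as did 29.8% of all 32851 windows. Ms4a2 held 3, whose first bases lie at -224, -37 and -11 from the start, and no match overlapped another. Fcer1a held 1 at -92, Cpa3 1 at -46, Mcpt4 1 at -103 and Cma1 1 at -79, while neither window of Kit held one. The 250 bases before the start are shown for these 5 genes because they include the IgE receptor pair and the granule proteases whose levels are compared below, with the hexamers in capitals on the strand of the gene. They lie at chr19:11623720-11623969 for Ms4a2, chr1:173227230-173227479 for Fcer1a, chr3:20242182-20242431 for Cpa3, chr14:56062311-56062560 for Mcpt4 and chr14:55944676-55944925 for Cma1, all on the minus strand of GRCm38.p6.
Ms4a2: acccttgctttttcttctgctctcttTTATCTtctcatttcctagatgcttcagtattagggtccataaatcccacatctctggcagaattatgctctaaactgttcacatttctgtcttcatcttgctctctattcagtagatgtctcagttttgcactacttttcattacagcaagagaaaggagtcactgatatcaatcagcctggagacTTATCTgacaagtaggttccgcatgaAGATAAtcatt
Fcer1a: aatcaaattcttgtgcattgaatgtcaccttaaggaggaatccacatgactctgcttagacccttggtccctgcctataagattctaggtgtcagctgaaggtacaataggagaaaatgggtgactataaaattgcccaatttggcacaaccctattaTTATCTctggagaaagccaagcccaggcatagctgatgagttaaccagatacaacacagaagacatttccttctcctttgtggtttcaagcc
Cpa3: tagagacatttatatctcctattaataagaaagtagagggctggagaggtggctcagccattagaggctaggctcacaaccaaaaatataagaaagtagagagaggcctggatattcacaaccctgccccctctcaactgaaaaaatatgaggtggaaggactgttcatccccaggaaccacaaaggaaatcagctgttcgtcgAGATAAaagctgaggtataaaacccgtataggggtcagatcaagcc
Mcpt4: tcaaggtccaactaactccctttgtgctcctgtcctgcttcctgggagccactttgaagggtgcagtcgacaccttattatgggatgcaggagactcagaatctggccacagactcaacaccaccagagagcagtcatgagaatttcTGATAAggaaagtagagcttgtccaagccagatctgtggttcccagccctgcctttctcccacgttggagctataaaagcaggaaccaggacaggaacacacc
Cma1: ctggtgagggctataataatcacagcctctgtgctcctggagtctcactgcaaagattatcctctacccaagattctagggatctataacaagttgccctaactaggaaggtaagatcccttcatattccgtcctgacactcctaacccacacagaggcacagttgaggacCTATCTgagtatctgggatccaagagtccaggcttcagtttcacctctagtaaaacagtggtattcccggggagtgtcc

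The E-box hexamers CATGTG and CACGTG, which the mast cell and melanocyte factor MITF binds, occurred in 20.4% of all windows and, among these genes, once in that of Fcer1a. The full palindromic glucocorticoid response element, searched on both strands, occurred in 0.0487% of all windows and in none of these. A match in these windows is a run of letters and does not show binding.

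On the 6 arrays, 63.0% to 70.3% of probes were well above background, the 75th percentile ranged from 537 to 679 signal units, and no spot was saturated. Levels are given as a percentage of the array's 75th percentile, and levels of different probes are not comparable. With 1 array per group a comparison of arrays has no replicate error and no p-value. The interval after a difference is 1.96 times the spot error of the scanner software and leaves out variation between mice. A gene was called at a difference of at least 2-fold. Both 12 h arrays lay on slide 2 and the other 4 arrays on slide 1, so against the baseline array the 12 h groups and the slide cannot be told apart. The probes that represent the 7 genes were well above background on 6 of 6 arrays. Of the hair cell markers that check the tissue, Otof was well above background on 6 of 6 arrays and Slc26a5 on none.

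**Figure D1:**
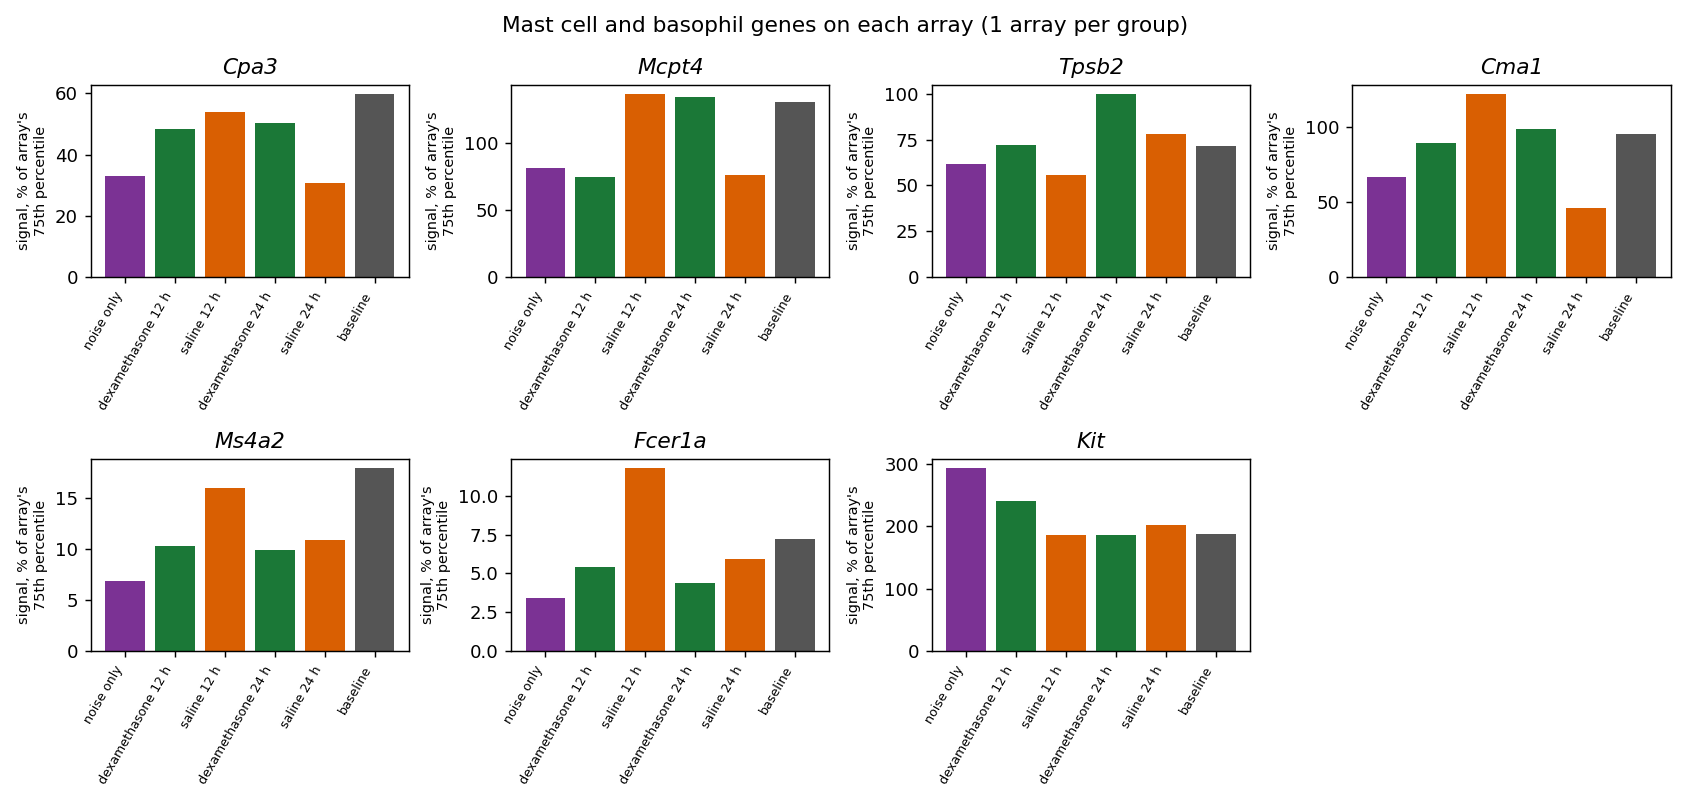
Signal of the probe representing each of the 7 genes on each array, as a percentage of that array's 75th percentile, with a separate linear axis from 0 for each gene and 1 bar per array. Fcer1a peaks at 11.8% on the saline 12 h array, Kit at 294% on the noise-only array, and Cma1 is lowest at 46.1% on the saline 24 h array.

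Among the granule proteases, Cpa3, Mcpt4 and Cma1 were low on the noise-only and saline 24 h arrays, and Tpsb2 followed another order. Cpa3 stood at 33.1% of the 75th percentile on the noise-only array, 48.2% on dexamethasone 12 h, 53.7% on saline 12 h, 50.3% on dexamethasone 24 h, 30.7% on saline 24 h and 59.7% on baseline. Its levels formed a high set of 4 arrays and a low set of 2, since between neighbours in the order only the step from dexamethasone 12 h to noise only, of 0.54 on the log2 scale, was beyond spot error. Mcpt4 stood at 81.0% on noise only, 74.6% on dexamethasone 12 h, 136% on saline 12 h, 134% on dexamethasone 24 h, 75.7% on saline 24 h and 130% on baseline. These too split into sets, with 3 arrays at 130% or above and 3 at 81.0% or below, and no step within either set was beyond spot error. Cma1 stood at 66.9% on noise only, 89.1% on dexamethasone 12 h, 122% on saline 12 h, 98.5% on dexamethasone 24 h, 46.1% on saline 24 h and 95.6% on baseline. For Cma1 the 4 highest arrays did not differ from their neighbours beyond spot error, and noise only and saline 24 h lay below them in separate steps of 0.41 and 0.54. Tpsb2 stood at 61.9% on noise only, 72.1% on dexamethasone 12 h, 55.9% on saline 12 h, 99.8% on dexamethasone 24 h, 78.1% on saline 24 h and 71.4% on baseline, and no neighbours in its order differed beyond spot error.

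The IgE receptor chains were dim, which widens their intervals, and both were lowest after noise alone. Ms4a2 stood at 6.87% on noise only, 10.3% on dexamethasone 12 h, 16.0% on saline 12 h, 9.94% on dexamethasone 24 h, 10.9% on saline 24 h and 18.0% on baseline. Its baseline and saline 12 h arrays were the highest, 3 arrays between 9.94% and 10.9% did not differ from their neighbours beyond spot error, and noise only was apart below them. Fcer1a stood at 3.44% on noise only, 5.42% on dexamethasone 12 h, 11.8% on saline 12 h, 4.40% on dexamethasone 24 h, 5.90% on saline 24 h and 7.23% on baseline. For Fcer1a only the top step, from saline 12 h to baseline, was beyond spot error. Kit, the stem cell factor receptor, stood at 294% on noise only, 240% on dexamethasone 12 h, 186% on saline 12 h, 186% on dexamethasone 24 h, 202% on saline 24 h and 188% on baseline. It was highest after noise alone, but each step between neighbours in its order was within spot error.

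The range from the lowest to the highest array was 1.77 on the log2 scale for Fcer1a, 1.41 for Cma1 and 1.39 for Ms4a2, against a median of 0.63 over the 22460 genes well above background on all 6 arrays. It was 0.96 for Cpa3, 0.87 for Mcpt4, 0.84 for Tpsb2 and 0.66 for Kit. Among those genes Cma1 and Ms4a2 lay at the percentiles of 89.9 and 89.6, with Fcer1a above them, and Kit at 52.9.

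Noise only against baseline asks what noise alone was followed by in the cochlea. Both chains of the IgE receptor and 3 of the 4 granule proteases were lower beyond spot error on the noise-only array, and Kit was higher. Ms4a2 was 2.62-fold lower (1.92 to 3.58) and Fcer1a 2.10-fold lower (1.35 to 3.27). These are the 2 of 7 genes called lower, in a comparison where 3.17% of 24161 genes were called lower. With normexp background correction neither was called. That setting adds an offset of 50 signal units, which shrinks differences of dim probes, and Fcer1a stood at 23.3 units on noise only and 46.5 on baseline. The proteases Cpa3, Mcpt4 and Cma1 had log2 differences of -0.85 (-1.25 to -0.45), -0.68 (-1.08 to -0.28) and -0.52 (-0.92 to -0.12). Tpsb2, the tryptase, had -0.21 (-0.61 to 0.20), within spot error. In all, 5 of 7 genes were lower beyond spot error, against 12.3% of all genes, and the median difference of the 7 was -0.68, against -0.014 over all genes. In bulk tissue, fewer cells of a type and less RNA per cell cannot be told apart. Kit was 1.56-fold higher (1.19 to 2.06), the only one of the 7 higher beyond spot error, against 9.64% of all genes. That difference was on the representing probe alone: its other probes, designed to a cDNA clone and lying 4192 and 4132 bases upstream on mm9, had log2 differences of 0.16 (-0.32 to 0.65) and -0.08 (-0.51 to 0.34).

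**Figure D2:**
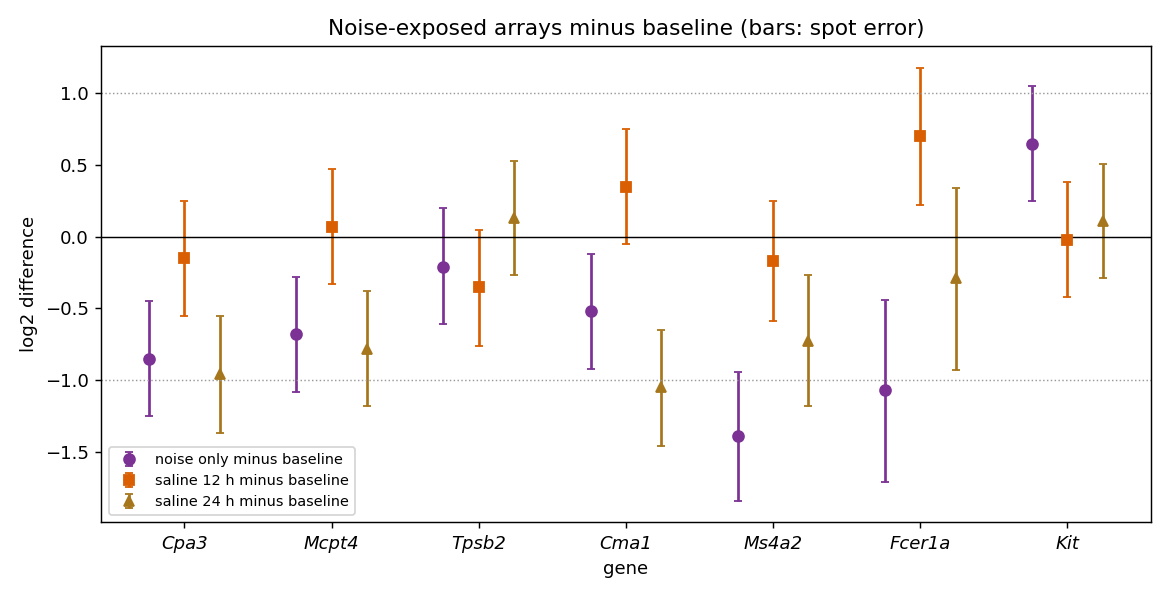
Log2 difference from the baseline array for each of the 7 genes on the noise-only (circles), saline 12 h (squares) and saline 24 h (triangles) arrays, with bars of 1.96 spot errors and dotted lines at 2-fold. Ms4a2 at -1.39 and Fcer1a at -1.07 lie below the lower line after noise alone, as does Cma1 at -1.05 at 24 h.

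Saline 12 h against baseline gave a different picture, on arrays of different slides. None of the 7 genes was called, where 7.83% of all 24285 genes were, and their median was -0.02. Fcer1a alone was beyond spot error, where 39.3% of all genes were, and it was 1.63-fold higher (1.17 to 2.27). The proteases lay between -0.35 (-0.76 to 0.05) for Tpsb2 and 0.35 (-0.05 to 0.75) for Cma1. Scaling the arrays on spike-in probes moved the median of all genes in this comparison to -0.76, and Fcer1a to -0.12, so its direction rests on the scaling. With that scaling the other 6 genes were lower than baseline beyond spot error.

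Saline 24 h against baseline again showed lower levels of the granule proteases other than Tpsb2. Cma1 was 2.08-fold lower (1.57 to 2.75), the only one of the 7 called, where 1.72% of 22966 genes were called lower. Cpa3 and Mcpt4 had log2 differences of -0.96 (-1.37 to -0.55) and -0.78 (-1.18 to -0.38). Ms4a2 had -0.73 (-1.18 to -0.27), so 4 of 7 genes were lower beyond spot error, against 8.80% of all genes. Fcer1a at -0.29 (-0.93 to 0.34), Tpsb2 at 0.13 (-0.27 to 0.53) and Kit at 0.11 (-0.29 to 0.51) were within it, and the median of the 7 was -0.73. With spike-in scaling 4 of 7 were called lower, Cma1 at -1.35, Cpa3 at -1.26, Mcpt4 at -1.08 and Ms4a2 at -1.03, while Tpsb2 stood at -0.17 and Kit at -0.19. That scaling moved the median of all genes to -0.29, and the share of all genes called under it was not computed. With normexp background correction none was called, and Cma1 had -0.88. The baseline mice are the shared comparison for these differences, so a high or low baseline array would enter all of them.

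Dexamethasone against saline at 12 h asks what the drug changed in noise-exposed cochleae, with both arrays on slide 2. The receptor chains and the chymase genes were lower beyond spot error with the drug as scaled here, and Tpsb2 and Kit were not. Fcer1a was 2.17-fold lower (1.46 to 3.22), the only gene of the 7 called, where 1.87% of 24179 genes were called lower. Mcpt4 had a log2 difference of -0.87 (-1.27 to -0.47), Ms4a2 -0.63 (-1.07 to -0.19) and Cma1 -0.45 (-0.86 to -0.05). These make 4 of 7 genes lower beyond spot error, against 13.2% of all genes, with a median of -0.45 against -0.024 over all genes. Spike-in scaling, which moved the median of all genes to 0.26, gave the 7 genes a median of -0.17 with none called. Fcer1a (-0.83) and Mcpt4 (-0.58) were then lower beyond spot error and Tpsb2 and Kit (0.66 each) higher beyond it. Ms4a2 (-0.34) and Cma1 (-0.17) were within it. With normexp only Mcpt4 (-0.77) was lower beyond spot error, and averaging the probes of a gene gave a median of -0.16. Cpa3 at -0.16 (-0.56 to 0.25), Tpsb2 at 0.37 (-0.03 to 0.77) and Kit at 0.37 (-0.03 to 0.77) were within spot error.

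The second probe of Ms4a2 went the other way on the dexamethasone 12 h array. It is assigned to the same transcript, 1594 bases upstream of the first on mm9, and was well above background there alone. It stood at 9.69% of the 75th percentile on dexamethasone 12 h, against 1.13% on saline 12 h and 0.550% on baseline, and at 0.511% to 0.868% on the other arrays. This is at least 3.79-fold over saline 12 h and at least 3.87-fold over baseline. It rests on 1 spot, whose pixels had a mean of 97.8 units with an SD of 54.4 and a median of 79.0, against a mean of 43.0 and an SD of 15.3 for the same spot on saline 12 h. Averaging the probes therefore turned the Ms4a2 difference at 12 h to 1.23.

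Dexamethasone against saline at 24 h, both on slide 1, showed the granule proteases higher with the drug. Cma1 was 2.14-fold higher (1.61 to 2.83), the only gene of the 7 called, where 1.63% of 22710 genes were called higher. It fell just short of 2-fold with normexp, at 0.93, and with spike-in scaling, at 0.99. Mcpt4 was 1.77-fold higher (1.34 to 2.34) and Cpa3 1.64-fold (1.23 to 2.17), which makes 3 of 7 higher beyond spot error, against 8.67% of all genes. Tpsb2, at 0.35 (-0.05 to 0.76), was within spot error. The receptor chains and Kit were also within it, with log2 differences of -0.42 (-1.22 to 0.37) for Fcer1a, -0.13 (-0.62 to 0.36) for Ms4a2 and -0.12 (-0.52 to 0.28) for Kit. The median of the 7 was 0.35, against -0.005 over all genes. Against the baseline array, the dexamethasone 24 h array had Cma1 at 0.04 (-0.36 to 0.44), Mcpt4 at 0.05 (-0.35 to 0.45) and Cpa3 at -0.25 (-0.65 to 0.16), and of the 3 arrays saline 24 h had the lowest level of each of these proteases.

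**Figure D3:**
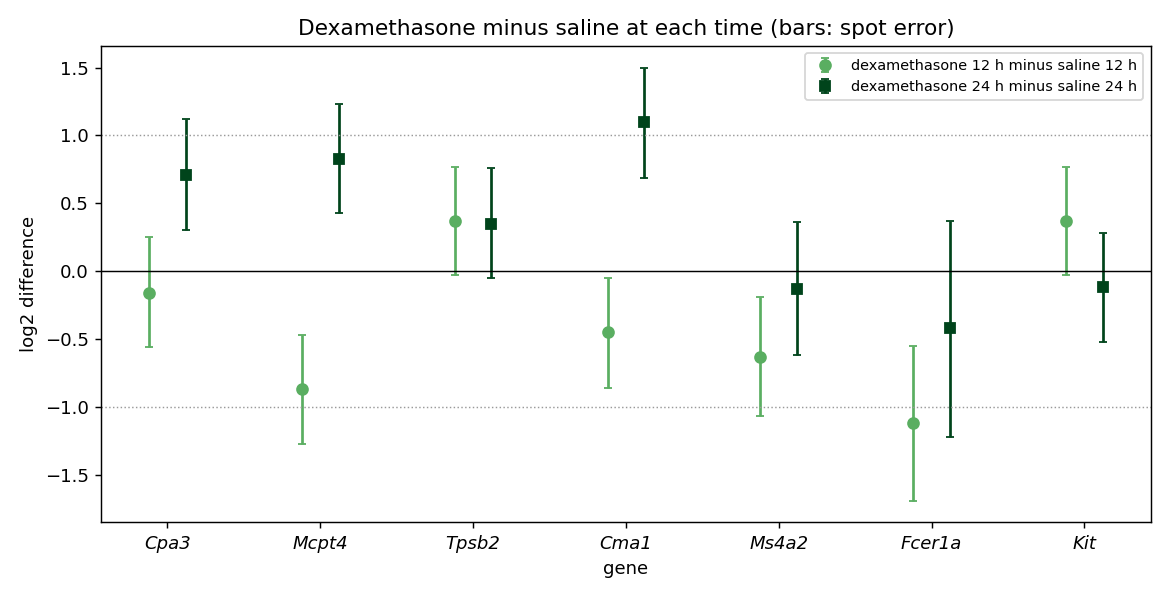
Log2 difference of dexamethasone minus saline at 12 h (circles) and 24 h (squares) for each of the 7 genes, with bars of 1.96 spot errors and dotted lines at 2-fold. Mcpt4 lies at -0.87 at 12 h and 0.83 at 24 h and Cma1 at -0.45 and 1.10, while Tpsb2 lies at 0.37 and 0.35.

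Over both times together, limma on the 4 arrays with a term for time called 0 of 24767 genes at an adjusted p of 0.05, and 14.7% of genes had an unadjusted p under 0.05. In that fit Fcer1a had a log2 difference of -0.77 (SE 0.32, adjusted p = 0.37 by limma), negative at both times. Tpsb2 had 0.36 (SE 0.13, adjusted p = 0.32 by limma), positive at both times. Leaving out 1 array, with no time term, gave Fcer1a between -1.27 (without saline 24 h) and -0.27 (without saline 12 h). For Tpsb2 it gave 0.12 without saline 12 h, 0.13 without dexamethasone 24 h, and 0.60 without dexamethasone 12 h or without saline 24 h. Neither passed the adjustment, and the other 5 had adjusted p-values of 0.54 to 0.99 by limma. Mcpt4, which differed in opposite directions at the 2 times, had -0.02 (SE 0.41).

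Basophil proteases were highest on the saline 12 h array and lowest on the noise-only array, as Fcer1a was. Mcpt8, a protease of mouse basophils, stood at 47.9% of the 75th percentile on noise only, 71.2% on dexamethasone 12 h, 242% on saline 12 h, 73.7% on dexamethasone 24 h, 109% on saline 24 h and 149% on baseline. Prss34, another basophil protease, stood at 55.7%, 82.3%, 267%, 80.5%, 110% and 178% on the same arrays in that order. Both were more than 2-fold below baseline on noise only and on both dexamethasone arrays. Of 10 basophil genes, 7 were measured after noise alone, 3 of them were called lower, against 3.17% of all genes, and their median was -0.99. At 12 h the median of dexamethasone against saline was -0.72 over 8 measured genes, with 2 called lower against 1.87% of all genes, Mcpt8 at -1.77 and Prss34 at -1.70. At 24 h it was -0.46 over 7 measured genes, with 2 called lower against 1.53% of all genes, Ms4a3 at -1.06 and the interleukin 3 receptor gene Il3ra at -1.07. The proteases Mcpt8 (-0.56) and Prss34 (-0.46), defining markers of basophils, were lower but not called at 24 h. Cd200r3, also a basophil receptor, was well above background on 3 of 6 arrays, namely saline 12 h, dexamethasone 24 h and baseline, and Il4 on saline 12 h and baseline alone.

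Other mast cell genes were divided. Of 17 further granule and surface genes, 6 were not well above background on any of the 6 arrays: the tryptase gene Tpsab1, the proteases Mcpt1, Mcpt2 and Mcpt9, and the receptors Mrgprb1 and Mrgprb2. Over the 11 measured after noise alone the median was -0.44, with 1 called lower. That gene was Slc18a2, the vesicular monoamine transporter that loads histamine into granules, which stood at 31.9% on noise only, 20.7% on dexamethasone 12 h, 13.9% on saline 12 h, 106% on dexamethasone 24 h, 26.4% on saline 24 h and 92.6% on baseline. Its highest arrays were dexamethasone 24 h and baseline, and dexamethasone minus saline at 24 h was 2.00 on the log2 scale. For dexamethasone minus saline, the list had a median of -0.39 over 11 measured genes at 12 h. There 2 were called lower, Tpsg1 at -1.08 and Ctsg at -1.05, against 1.87% of all genes. At 24 h its median was -0.24 over 10 measured genes. Slc18a2 was called higher there, against 1.63% of all genes, and Ctsg, at -1.02, was called lower, against 1.53%. Hdc, which makes histamine, stood at 158% on noise only, 307% on dexamethasone 12 h, 461% on saline 12 h, 152% on dexamethasone 24 h, 185% on saline 24 h and 291% on baseline. Hdc was thus highest on saline 12 h, like the basophil proteases, and dexamethasone minus saline was -0.59 at 12 h and -0.29 at 24 h. The part of other cell types in the differences of these listed genes was not tested.

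The kinases and adaptors downstream of the IgE receptor, which many blood cells share, were mostly lower after noise alone. Of 12 measured genes 11 were lower, with a median of -0.70, and the kinase gene Btk was called lower at -1.72. Fcer1g, the gamma chain that the IgE receptor shares with other Fc receptors, had -0.67. Dexamethasone minus saline had a median of -0.55 at 12 h, with 10 of 12 lower, and of -0.29 at 24 h, with 12 of 12 lower and none called at either time. The genes of stem cell factor signalling and of the transcription factors that act with Kit had medians near 0, though single genes lay further off. After noise alone their median was -0.15 over 11 genes with none called, and Kitl, which encodes stem cell factor, had 0.09. In that comparison 7 of the 11 were lower and 4 higher, with the largest differences in the transcription factor genes Spi1 (-0.86) and Gata1 (-0.67). For dexamethasone minus saline the list had a median of -0.08 at 12 h and -0.04 at 24 h. Gata1, a factor of red cell, mast cell and basophil lineages, was the only one called in either drug comparison, at -1.04 at 24 h. There 10 genes of the list were measured, and 1.53% of all genes were called lower.

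Melanocyte genes, like Kit, were mostly higher on the noise-only array, and so were hair cell and skeletal muscle genes. The melanocyte median was 0.36, with 8 of 9 measured genes higher, Dct lower at -0.13, and none called. Hair cell genes had a median of 0.27 with 7 of 7 higher, and skeletal muscle genes 0.72 with 8 of 10 higher. The defining melanocyte markers Tyr, Dct and Pmel were well above background on 6 of 6 arrays. At 24 h, dexamethasone minus saline had a median of -0.78 for melanocyte genes with 4 of 9 called lower, against 1.53% of all genes, where Kit had -0.12. Blood progenitor genes, some of which also mark Kit-expressing cells, had a median of -0.12 after noise alone. The part of either cell type in the Kit difference was not tested.

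Genes of other granulocytes differed in the same comparisons. Eosinophil genes had a median of -1.71 after noise alone with 8 of 9 called lower against 3.17% of all genes, 2.13 for saline 12 h against baseline, -2.56 for dexamethasone minus saline at 12 h and -1.16 at 24 h. Their defining markers Epx and Prg2 were well above background on all 6 arrays. Neutrophil genes had medians of -1.14 after noise alone, with 12 of 12 lower, and of -0.81 and -0.46 for dexamethasone minus saline at 12 h and 24 h. Their mean log2 level ranged over the arrays from 3.64 on dexamethasone 24 h to 5.22 on saline 12 h, and that of the eosinophil genes from -1.08 on noise only to 2.29 on saline 12 h. The part of blood and marrow cells in the differences of Fcer1a and Ms4a2 was not tested. Keratin and other epidermal genes, which mark skin, had a median of -3.10 after noise alone, 1.94 for saline 12 h and -1.55 for saline 24 h against baseline, and their part was not tested either. Mucosal gland genes had 1.20 for saline 12 h against baseline and skeletal muscle genes 1.79, with 9 of 10 muscle genes called higher against 4.41% of all genes. Hair cell genes had 0.01 in that comparison, with 4 of 7 higher and 3 lower. Of these 1 was called, lower, where 7.83% of all genes were called in either direction. After noise alone the hair cell genes had 0.27 and none called.

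**Figure D4:**
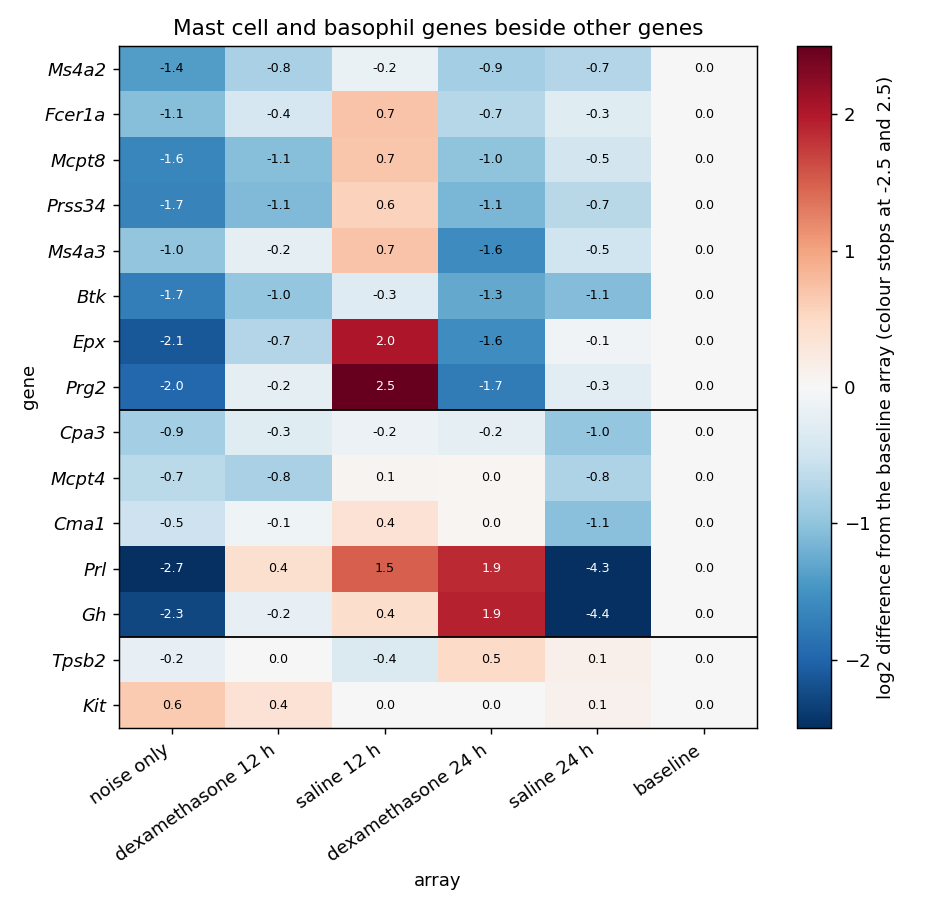
Log2 difference of each array from the baseline array for the 7 genes and 8 others, with colour from -2.5 (blue) to 2.5 (red), arrays in columns and genes in rows. The upper block sets Ms4a2 and Fcer1a beside basophil, eosinophil and IgE signalling genes, the middle block sets Cpa3, Mcpt4 and Cma1 beside Prl and Gh, whose blue reaches the end of the scale, and the lower block shows Tpsb2 and Kit.

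The genes most alike in profile were listed for the 3 that spanned at least 1 on the log2 scale, by Pearson's r over the 6 arrays among 3496 genes with that span. The points share the same arrays, and with 6 points high values arise easily among so many genes. For Ms4a2 they were Kcnj5 (r = 0.994), Cela1 (0.993), Btk (0.987), Mmp25 (0.979) and Tlr12 (0.979). Those for Fcer1a were Rnase12 (0.993), Klk1b24 (0.993), Ikzf1 (0.992), F2rl3 (0.991) and Sash3 (0.991), of which Ikzf1 encodes a lymphoid transcription factor. Ms4a2 and Fcer1a, subunits of the same receptor, had r = 0.874 with each other and neither was among the 5 nearest of the other.

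Cma1 had other neighbours, namely Ms4a18 (r = 0.953), Prl (0.952), Asic4 (0.942), Gh (0.915) and Spon2 (0.911). Prl and Gh encode the pituitary hormones prolactin and growth hormone. Prl stood at 224% of the 75th percentile on noise only, 1893% on dexamethasone 12 h, 4058% on saline 12 h, 5206% on dexamethasone 24 h, 74.3% on saline 24 h and 1437% on baseline. Gh stood at 27.5% on noise only, 116% on dexamethasone 12 h, 180% on saline 12 h, 504% on dexamethasone 24 h, 6.44% on saline 24 h and 133% on baseline. Both hormones were lowest on saline 24 h and next lowest on noise only, the arrays on which Cma1 and Cpa3 were also lowest. The part of pituitary tissue in the differences of the proteases was not tested. Cma1 had r = 0.502 with Ms4a2 and 0.484 with Fcer1a.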

How the data were processed

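Cochlear RNA was labelled with Cy3 and hybridised to 6 arrays, 1 per group, per the labels' protocols. The deposited scanner files give each spot's intensity in linear units, which the authors extracted with Agilent Feature Extraction 10.10.1.1, per the submitters' processing notes, and the probe positions in them are on mm9, per the file headers. The log2 values of the series matrix that the authors deposited differed from log2 of the scanner values by 1 constant per array for 100% of probes, to within 0.01. Medians of its columns were -2.989 for noise only, -2.820 for dexamethasone 12 h, -2.860 for saline 12 h, -2.908 for dexamethasone 24 h, -2.937 for saline 24 h and -2.964 for baseline, so its scale, centring and direction are known.

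From the processed signals, outlier spots were left out, log2 was taken, the 75th percentile of the array's non-control probes was subtracted and spots of a probe were averaged. Of 56605 probes, 16 were left out, and 32994 were named through accessions in the RefSeq table (GRCm38.p6), which served for names alone. Where a gene has several probes, the brightest on average over the 6 arrays represents it. A gene counts as measured where both arrays of a comparison had it well above background. A probe above background on 1 of them has a bound on its fold only, set against its own dim signal or the lowest signal well above background on that array, whichever was higher. Intervals are 1.96 spot errors, kept the same in every processing setting, and precision is limited by the number of arrays. Sequences come from RefSeq's promoter table, and Tpsb2 is named only.

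Dexamethasone over both times was fitted with limma 3.58.1 (eBayes with trend) in R 4.3.3 on genes that at least 2 of the 4 arrays had well above background, with Benjamini-Hochberg adjustment. Slide was not added as a block, because the 12 h arrays fill slide 2 and it equals the time term. Tested on simulated data for that comparison over 24767 genes, the fit made 15 false calls and found 38% of 100 genes set at 2-fold and 83% of 100 set at 4-fold. Python 3.11.15, pandas 2.3.3, numpy 2.4.6, data.table (version 1.17.8) and matplotlib 3.10.9 did the other steps.

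The 7 genes and the 12 gene lists were chosen with earlier results of these data known. Named were these 7 genes, mast cell and basophil genes of the lists, up to 3 genes of each other list by size, the defining markers, and the 5 genes most alike to each gene that spanned at least 1 on the log2 scale. Kitl, Fcer1g and the Prl and Gh levels were singled out after their values were seen. For 1 gene of the lists no result is reported here.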

Additional observations from a re-analysis of the deposited data

Results flagged for a closer look

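The difference between dexamethasone and saline had opposite signs at 12 h and 24 h, beyond spot error at each time, for a pair of granule protease genes. For Mcpt4 it was 0.83 at 24 h and -0.87 at 12 h on the log2 scale, a difference of 1.70 between the times. For Cma1 it was 1.10 at 24 h and -0.45 at 12 h, a difference of 1.55. The 12 h value of Cma1 was -0.17 with spike-in scaling and -0.37 with normexp background correction, both within the spot error of 0.40. With 1 array per group and time the difference between times was not tested, and the times lie on different slides.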

How the results depend on the processing

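No paired analysis was possible because the labels give no replicate numbers and each group has 1 array. Settings were quantile normalization, normexp, the percentile over detected probes, spike-in scaling, the series matrix, the mean over probes and other filters. The medians and call counts moved in 5 of 52 recomputations, and single genes moved or turned in sign in 25 of 294. Causes were not tested unless stated. Part of these recomputations could not differ from the values as reported. The series matrix repeats the scanner values up to a constant, and the filters between 2 arrays kept all 7 genes. Genes with a single probe equal their mean over probes. These shares are therefore no measure of robustness. The median of the 7 genes for saline 12 h against baseline was -0.83 with spike-in scaling, against -0.02, where the median of all genes was -0.76. For saline 24 h against baseline it was -0.29 with the mean over all probes, against -0.73. The genes called by limma for dexamethasone over both times, 0 as reported and 3634 at an unadjusted p under 0.05, were 548 with spike-in scaling (341 higher, 207 lower), 951 with no filter on dim probes (328 higher, 623 lower), and 0 to 21 when 1 array was left out with no time term, where the lone array of an arm is assumed to vary like the others; the 21 came without dexamethasone 12 h. In the same fit no setting run called any of the 7 genes, but signs turned for Mcpt4, -0.02 as reported, with spike-in scaling (0.07), without dexamethasone 12 h (0.40) and without saline 12 h (0.40), for Kit without dexamethasone 12 h (-0.06), and for Cma1 (-0.38) and Cpa3 (-0.12) without saline 24 h. None of the 7 genes changed sign after noise alone in any of 7 settings, but normexp brought Fcer1a to -0.38 and Ms4a2 to -0.85, both under 2-fold, and the mean over probes brought Ms4a2 to -0.75 and Kit to 0.24. Normexp likewise brought Fcer1a to -0.54 for dexamethasone against saline at 12 h. Signs also turned with spike-in scaling for Mcpt4 (-0.75), Cma1 (-0.46) and Fcer1a (-0.12) at saline 12 h and Tpsb2 (-0.17) and Kit (-0.19) at saline 24 h against baseline, and for Cpa3 (0.13) in dexamethasone against saline at 12 h, and with the mean over probes for Ms4a2 at saline 12 h against baseline (0.43) and in dexamethasone against saline at 12 h (1.23) and for Kit in dexamethasone against saline at 24 h (0.05). Dim signals limit the receptor chains most.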
